A study of Mus musculus with 16 samples.

Results

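The genes described here are Srebf2 and 7 of the genes that its product, the transcription factor SREBP2, switches on for cholesterol synthesis. They were chosen by name, with earlier results of these data known: Srebf2, Insig1, Hmgcs1, Idi1, Fdps, Fdft1, Sqle and Lss. Of these 8 genes, 7 were among the 37310 rows of the count table, and Hmgcs1 was not analysed here. All 7 passed the filter on low counts in every comparison. SREBP2 is made as a membrane protein of the endoplasmic reticulum. When sterols are scarce the escort protein SCAP carries it to the Golgi, where proteases release the part that enters the nucleus, and when sterols are plentiful INSIG proteins hold SCAP back. Macrophages obtain much of their cholesterol by uptake of lipoproteins and dead cells, and they store or export what they do not use.

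The study followed adipose tissue macrophages (ATMs), sorted as F4/80+ cells from the epididymal fat pads of male mice. IRF5-KO mice came from a cross of mice carrying a floxed Irf5 gene with LysM-Cre mice, so that Cre acts in myeloid cells, and the source and the flox and Cre alleles of the WT mice are not given in the sources used here. Both genotypes received a high-fat diet (HFD, 60% fat) from an age of 7 to 10 weeks, for 4 weeks (short-term, ST-HFD) or 12 weeks (long-term, LT-HFD), which gave 4 groups of 4 libraries. Mice on LT-HFD were therefore also older, and duration and age cannot be told apart. The labels do not say whether a library held cells of 1 mouse or of several, so the p-values measure the spread between libraries.

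Total counts per library ran from 3860469 to 4958131 on ST-HFD and from 3279332 to 3792898 on LT-HFD. The 3 most abundant features took 18.6% to 24.1% of the total in ST-HFD libraries and 26.1% to 34.5% in LT-HFD libraries, the highest share being that of WT LT-HFD replicate 2. Libraries labelled IRF5-KO did not have less of the targeted gene, Irf5. Its mean level in CPM (counts scaled to a common library total) was 238 ± 23.2 (SD, n = 4) in WT and 262 ± 11.5 in IRF5-KO on ST-HFD, and 193 ± 20.1 and 229 ± 26.5 on LT-HFD. Counts were given per whole gene, so the floxed exons could not be examined alone, and genotypes are named as labelled. A plot of Irf5 in the study draws the durations in the opposite order to these labels, so the durations too are given as labelled. Which order is right was not settled here, and if the duration labels were exchanged, every duration difference below would change sign. The macrophage marker list was high in all libraries (on ST-HFD its summed level was 5362 to 5793 CPM, on LT-HFD 4128 to 4982 CPM), and Adgre1, which encodes F4/80, had a mean of 609 to 840 CPM across groups.

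SREBP proteins bind the sterol regulatory element, usually beside sites for NF-Y, which binds the CCAAT box. RefSeq promoters (GRCm38.p6) were found for 5 of the 8 genes, Srebf2, Insig1, Hmgcs1, Idi1 and Lss. The 250 bases before each gene's start were searched on both strands for TCACNCCA, a core of the sterol regulatory element, for CCAAT, for the E-box CACGTG and for AANNGAAA, a core of the sites that IRF proteins bind. TCACNCCA was present before 2 of the 5 genes, Hmgcs1 and Srebf2, and in 3.67% of 32851 promoters. CCAAT was present before 5 of 5 and in 33.8% of all promoters. The matches of Idi1, 45 and 14 bases before its RefSeq start, lie after an earlier annotated transcript start. Among 13 other enzymes of the pathway with a promoter entry, CCAAT was present before 12 and TCACNCCA before 1, Msmo1. CACGTG was present before 1 of the 5 genes, Insig1, and in 6.02% of promoters. AANNGAAA was found before 0 of the 5 and in 21.3% of promoters. The stretches below end before the first annotated transcript start, and capitals mark the matches, which do not overlap one another. Srebf2 (chr15:82147019-82147180, plus strand) is shown for its pair of sterol element and reversed CCAAT box, which begin 162 and 135 bases before the RefSeq start. Insig1 (chr5:28071162-28071362, plus strand) is shown for its reversed CCAAT box and E-box, 216 and 101 bases before the start. Lss (chr10:76531355-76531587, plus strand) is shown as the last-acting enzyme measured, with 1 reversed CCAAT box 62 bases before the start.
Srebf2: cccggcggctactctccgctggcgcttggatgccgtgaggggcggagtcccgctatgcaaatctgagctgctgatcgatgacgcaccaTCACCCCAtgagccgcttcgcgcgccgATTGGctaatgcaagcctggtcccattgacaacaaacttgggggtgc
Insig1: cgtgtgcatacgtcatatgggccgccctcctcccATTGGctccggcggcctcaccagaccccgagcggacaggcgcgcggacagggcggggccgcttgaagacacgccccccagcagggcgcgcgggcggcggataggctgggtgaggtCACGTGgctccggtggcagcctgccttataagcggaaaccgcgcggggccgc
Lss: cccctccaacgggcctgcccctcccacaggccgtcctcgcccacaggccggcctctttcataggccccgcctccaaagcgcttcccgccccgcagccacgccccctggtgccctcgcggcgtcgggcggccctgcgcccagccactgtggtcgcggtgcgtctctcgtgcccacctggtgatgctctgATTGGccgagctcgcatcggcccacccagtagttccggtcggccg

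Srebf2 also carries a microRNA gene, Mir33, on its own strand and outside every annotated Srebf2 exon. The mature forms of miR-33 are known to repress the cholesterol exporter Abca1. They are shown with the seed, bases 2 to 8, in capitals, at chr15:82198127-82198147 and chr15:82198167-82198188.
mmu-miR-33-5p: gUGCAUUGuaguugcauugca
mmu-miR-33-3p: cAAUGUUUccacagugcaucac
The Mir33 row held 0 to 2 counts per library, and its level could not be compared between groups at this depth.

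Expressed per kilobase of exon, the regulators stood far above the enzymes. Over all 16 libraries Insig1 averaged 19.1 CPM per kb and Srebf2 12.7, followed by Fdps at 2.50, Fdft1 at 2.23, Sqle at 1.26, Idi1 at 1.18 and Lss at 0.665. In each of the 4 groups the libraries of Srebf2 lay wholly above those of Fdps. Insig1 lay wholly above Srebf2 in 3 groups, and the 2 genes overlapped in IRF5-KO ST-HFD. Fdps and Fdft1 overlapped in every group, as did Sqle and Idi1, so that their order is not resolved. The enzymes rested on few reads. Counts per library were 7 to 31 for Idi1, 7 to 57 for Sqle, 17 to 38 for Lss, 21 to 57 for Fdft1 and 21 to 59 for Fdps, against 162 to 271 for Insig1 and 187 to 553 for Srebf2. Fdft1 (chromosome 14, 63145150 to 63179578, minus strand) overlaps the cathepsin gene Ctsb on the opposite strand, which held 13051 to 29293 counts per library. The strand setting of the counting is not given in the sources used here, so the Fdft1 values are uncertain.

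**Figure D1:**
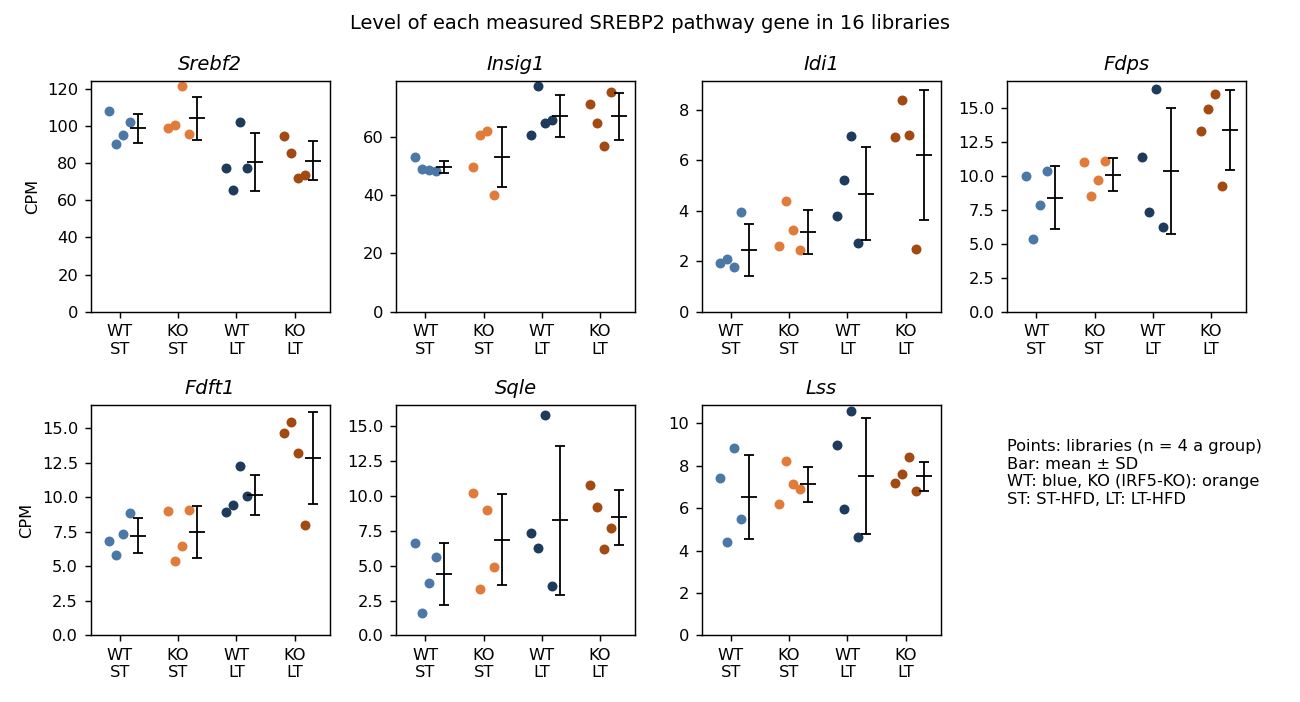
Level (CPM, axis from 0) of each measured gene in the 16 libraries, with points for libraries and a bar for the mean ± SD of each group of 4. Insig1 sits between 39.9 and 77.2 CPM and Srebf2 between 65.3 and 122 CPM, while the 5 enzymes stay at or below 16.4 CPM in every library.

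The differences that passed the test lay between diet durations. In WT, 1 of the 7 passed the test between LT-HFD and ST-HFD, Insig1, which rose 1.35-fold. In IRF5-KO, 2 of the 7 passed, Fdft1, which rose 1.71-fold, and Srebf2, which fell to 0.781 of its ST-HFD level. These shares are to be read against a background in which much of the transcriptome differed between the durations. By edgeR's quasi-likelihood test at an adjusted p under 0.05, 25.3% of 11560 tested genes were called in WT (12.1% higher and 13.2% lower on LT-HFD) and 32.8% in IRF5-KO (15.6% higher and 17.2% lower). The share of the 7 genes called was not above that background in either genotype. The median log2 fold change of the 7 was 0.43 in WT and 0.34 in IRF5-KO, beside 0.02 and 0.04 over all tested genes, and 6 of the 7 had a positive estimate in each genotype, the exception being Srebf2.

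Insig1, whose product retains SCAP and SREBP2 in the endoplasmic reticulum, is itself a target of SREBP2. In WT its level was 52.9, 49.0, 48.6 and 48.2 CPM in ST-HFD replicates 1 to 4, and 60.5, 77.2, 64.5 and 65.8 CPM in LT-HFD replicates 1 to 4. All 4 LT-HFD libraries were above all 4 ST-HFD libraries. The groups did not overlap for 2 of the 7 genes in WT, Insig1 and Fdft1, and for 26.1% of all tested genes. The log2 fold change of Insig1 in WT was 0.43 (SE 0.13, adjusted p = 0.0247 by the quasi-likelihood test of edgeR, with Benjamini-Hochberg correction over all tested genes). In IRF5-KO its level was 49.5, 60.7, 61.9 and 39.9 CPM on ST-HFD and 71.1, 64.8, 56.7 and 75.4 CPM on LT-HFD. These groups overlapped, since LT-HFD replicate 3 lay below ST-HFD replicates 2 and 3. The log2 fold change was 0.34 (SE 0.13, adjusted p = 0.0611 by edgeR's quasi-likelihood test), which did not pass. With 1 library left out it passed in 3 of 16 fits, those without IRF5-KO ST-HFD replicate 2 or 3 or LT-HFD replicate 3, and the adjusted p in edgeR ran from 0.0377 to 0.188. The WT call was lost without WT LT-HFD replicate 2, where the log2 fold change was 0.35 (adjusted p = 0.0828 in edgeR), and without ST-HFD replicate 2, 3 or 4 of WT. Over the 16 fits that each left out 1 library the adjusted p ran from 0.0111 to 0.0828 in edgeR.

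Srebf2, the gene of the factor itself, was the only one of the 7 with a lower estimate on LT-HFD, in both genotypes. In IRF5-KO its level was 99.1, 100.8, 122 and 95.5 CPM on ST-HFD and 94.6, 85.4, 72.2 and 73.5 CPM on LT-HFD. The highest LT-HFD library lay just below the lowest ST-HFD library. In IRF5-KO this was the 1 gene of the 7 whose groups did not overlap, against 29.4% of all tested genes. The log2 fold change was -0.36 (SE 0.13, adjusted p = 0.0460 by edgeR's quasi-likelihood test). In WT its level was 108, 90.3, 95.1 and 102 CPM on ST-HFD and 77.6, 65.3, 102 and 77.5 CPM on LT-HFD. The groups overlapped through LT-HFD replicate 3, and the log2 fold change of -0.29 (SE 0.13, adjusted p = 0.117 in edgeR) did not pass. Without that library the WT estimate was -0.43 (adjusted p = 0.0200 in edgeR), the one fit of 16 leaving out a library in which Srebf2 passed in WT. The IRF5-KO call held in 5 of 16 such fits, with adjusted p from 0.0251 to 0.151 in edgeR.

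**Figure D2:**
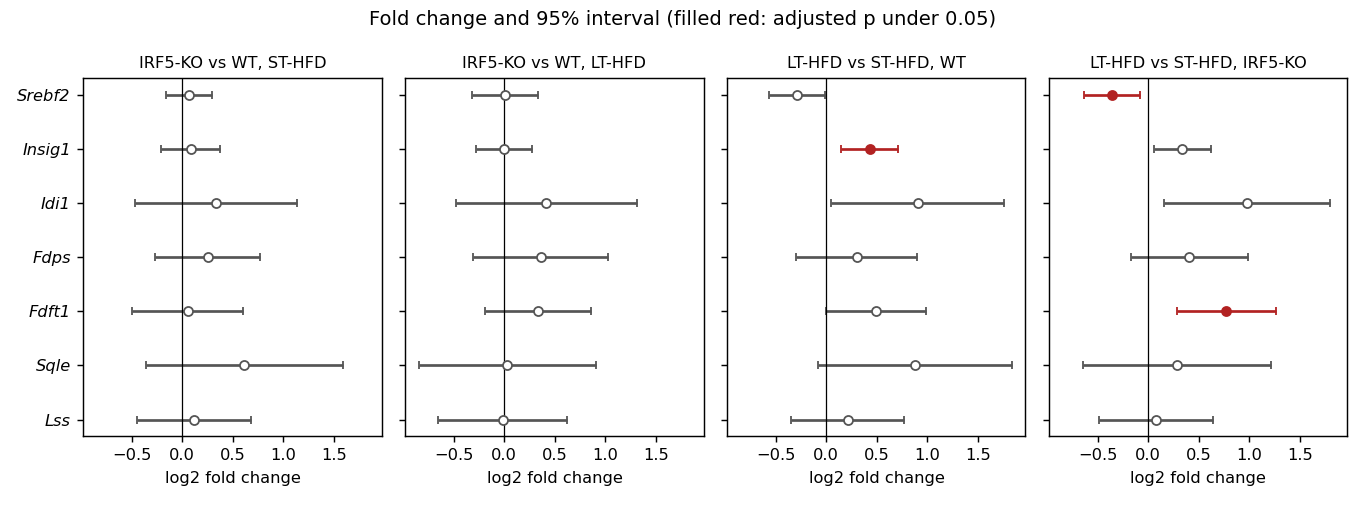
Log2 fold change of each measured gene (x axis, points) with its 95% interval in the 2 genotype comparisons and the 2 duration comparisons, filled red where the adjusted p was under 0.05. The intervals of both genotype panels span 0 for all 7 genes, and 3 points are filled, Insig1 in WT and Srebf2 and Fdft1 in IRF5-KO.

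Fdft1 encodes squalene synthase, the first step committed to sterols. In IRF5-KO its level was 9.02, 5.402, 6.47 and 9.11 CPM on ST-HFD and 14.7, 15.5, 13.2 and 8.03 CPM on LT-HFD. Replicates 1 to 3 on LT-HFD were above all ST-HFD libraries, whereas replicate 4 lay among them. The log2 fold change was 0.77 (SE 0.23, adjusted p = 0.0169 by edgeR's quasi-likelihood test). Leaving out 1 library at a time, the call held in 12 of 16 fits, with adjusted p from 0.00397 to 0.0583 in edgeR, and it was lost without ST-HFD replicate 2 or 3 or LT-HFD replicate 1 or 2 of IRF5-KO. In WT its level was 6.83, 5.80, 7.34 and 8.86 CPM on ST-HFD and 8.96, 9.43, 12.2 and 10.1 CPM on LT-HFD. These groups did not overlap, by a margin smaller than the spread within either, and the log2 fold change of 0.49 (SE 0.24, adjusted p = 0.143 in edgeR) did not pass. Ctsb, the gene it overlaps, had log2 fold changes of 0.07 (SE 0.20) in WT and 0.19 (SE 0.20) in IRF5-KO.

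Idi1 and Sqle did not pass in either genotype, and their standard errors were the widest of the 7. Idi1 encodes the isomerase that interconverts the 5-carbon building blocks of isoprenoids. In WT its level was 1.95, 2.09, 1.77 and 3.96 CPM on ST-HFD and 3.80, 5.24, 6.95 and 2.72 CPM on LT-HFD. In IRF5-KO it was 2.61, 4.37, 3.23 and 2.46 CPM on ST-HFD and 6.91, 8.40, 7.02 and 2.47 CPM on LT-HFD. In each genotype LT-HFD replicate 4 lay within the ST-HFD range, as did LT-HFD replicate 1 of WT. The log2 fold changes were 0.91 (SE 0.41, adjusted p = 0.118) in WT and 0.98 (SE 0.39, adjusted p = 0.0646) in IRF5-KO by edgeR's quasi-likelihood test. Without IRF5-KO LT-HFD replicate 4 the estimate in IRF5-KO was 1.23 (adjusted p = 0.0162 in edgeR, within a range of 0.0162 to 0.180 over the fits leaving out a library). Sqle encodes squalene epoxidase, a rate-limiting step late in the pathway. In WT its level was 6.63, 1.63, 3.80 and 5.65 CPM on ST-HFD and 7.33, 6.29, 15.9 and 3.53 CPM on LT-HFD. In IRF5-KO it was 10.2, 3.34, 9.01 and 4.92 CPM on ST-HFD and 10.8, 9.22, 6.18 and 7.72 CPM on LT-HFD. The groups overlapped in both genotypes, and the log2 fold changes were 0.88 (SE 0.46, adjusted p = 0.180) in WT and 0.29 (SE 0.44, adjusted p = 0.655) in IRF5-KO in edgeR. The WT estimate rested on LT-HFD replicate 3, without which it was 0.34.

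Fdps and Lss did not pass in either genotype. Fdps encodes farnesyl diphosphate synthase, which also feeds protein prenylation. It ran from 5.34 to 10.4 CPM in WT ST-HFD, 6.25 to 16.4 CPM in WT LT-HFD, 8.49 to 11.1 CPM in IRF5-KO ST-HFD and 9.27 to 16.01 CPM in IRF5-KO LT-HFD. The log2 fold changes were 0.30 (SE 0.28) in WT and 0.41 (SE 0.28) in IRF5-KO. Without WT LT-HFD replicate 3, the highest library for Fdps, the WT estimate was -0.01. Lss encodes lanosterol synthase, which closes the sterol rings. It ran from 4.41 to 8.86 CPM in WT ST-HFD, 4.62 to 10.6 CPM in WT LT-HFD, 6.22 to 8.23 CPM in IRF5-KO ST-HFD and 6.80 to 8.43 CPM in IRF5-KO LT-HFD. Its log2 fold changes were 0.21 (95% interval -0.35 to 0.77) in WT and 0.08 (-0.48 to 0.64) in IRF5-KO, and a change within these intervals was not detectable at this depth.

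The rest of the pathway was described from lists of genes not in the set above. Of 15 other enzymes of the mevalonate and sterol pathway, 13 were tested in the duration comparisons, and 12 of the 13 had a positive estimate in each genotype. The test was passed by 1 in WT and by 4 in IRF5-KO, all of them higher on LT-HFD, beside 12.1% and 15.6% of all tested genes called higher and 25.3% and 32.8% called in either direction. With so few genes nothing particular to the list is read from these counts. Sc5d, a late sterol desaturase, rose in both, with log2 fold changes of 0.82 (SE 0.28, adjusted p = 0.0364) in WT and 0.77 (SE 0.27, adjusted p = 0.0397) in IRF5-KO by edgeR's quasi-likelihood test. Dhcr7, which makes cholesterol from its immediate precursor, rose in IRF5-KO from 10.7 ± 2.58 to 18.6 ± 4.12 CPM (SD, n = 4), a log2 fold change of 0.80 (SE 0.21, adjusted p = 0.00809 in edgeR). Msmo1, a sterol demethylation enzyme, rose by 0.91 (SE 0.33, adjusted p = 0.0442 in edgeR) and Ggps1, which makes geranylgeranyl diphosphate for prenylation, rose by 0.55 (SE 0.20, adjusted p = 0.0448 in edgeR) on the log2 scale in IRF5-KO. Their WT estimates of 0.48 for Dhcr7, 0.45 for Msmo1 and 0.52 for Ggps1 did not pass. The median log2 fold change of the 13 enzymes was 0.45 in WT and 0.38 in IRF5-KO.

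Among the genes that control the release of SREBP proteins, Insig2, the second INSIG gene, rose in WT from 6.81 ± 1.27 to 12.5 ± 2.82 CPM (SD, n = 4), a log2 fold change of 0.87 (SE 0.25, adjusted p = 0.0180 in edgeR), and its IRF5-KO estimate of 0.56 (SE 0.26, adjusted p = 0.104 in edgeR) did not pass. Scap had estimates of -0.05 and -0.08, and the protease genes Mbtps1 and Mbtps2 did not pass in either genotype. Of 5 tested genes of uptake and transport, 0 passed in WT by edgeR (1 had an unadjusted p under 0.05, Npc1, with a log2 fold change of -0.41) and 1 rose in IRF5-KO, Npc2, a cholesterol carrier of the lysosome, by 0.29 (SE 0.11, adjusted p = 0.0442 in edgeR). Both counts lie below the 25.3% and 32.8% of all tested genes called.

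**Figure D3:**
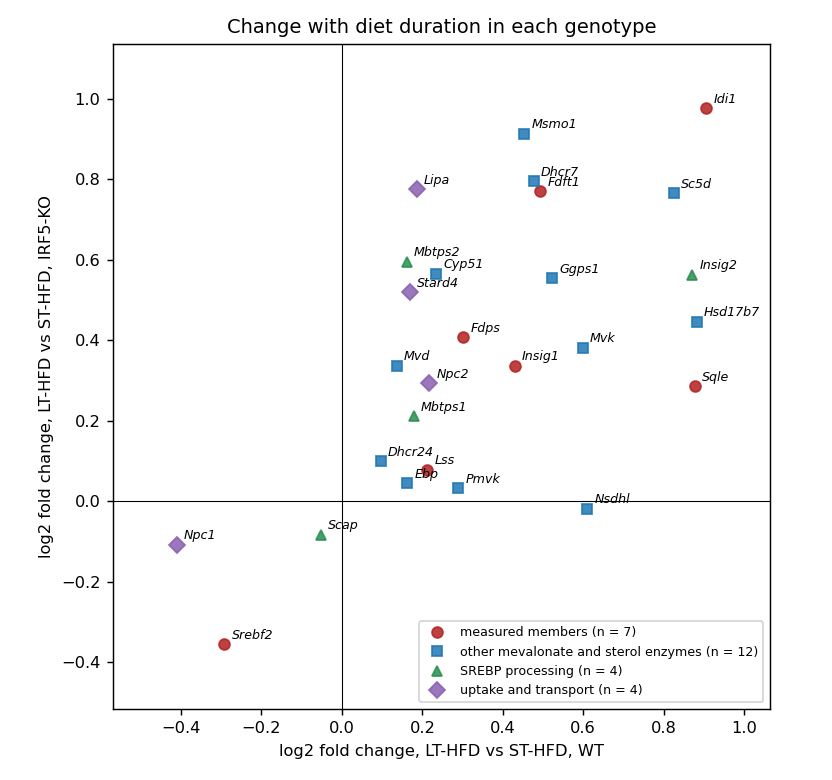
Log2 fold change of LT-HFD against ST-HFD in WT (x axis) and in IRF5-KO (y axis) for the 7 measured genes, 12 of the 13 other enzymes, 4 of 5 genes of SREBP processing and 4 of 5 of uptake and transport. Most of the points drawn lie in the upper right quadrant, where both estimates are above 0, while Srebf2 lies at the lower left with -0.29 and -0.36.

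Fatty acid synthesis is the domain of SREBP1. Of 11 tested genes of fatty acid synthesis, 2 rose and 1 fell in each genotype, a share near the 25.3% and 32.8% of all tested genes called. Fads2, a desaturase of polyunsaturated fatty acids, rose by 2.01 (SE 0.44, adjusted p = 0.00270) in WT and 1.82 (SE 0.43, adjusted p = 0.00365) in IRF5-KO on the log2 scale by edgeR's quasi-likelihood test. Its counts were 2 to 7 in ST-HFD libraries and 10 to 24 in LT-HFD libraries, and it did not pass the filter among ST-HFD libraries alone, so that it was admitted to the test by the libraries where it is high. Fasn, the fatty acid synthase, fell by 0.56 (SE 0.19, adjusted p = 0.0373) in WT and by 0.69 (SE 0.19, adjusted p = 0.00920) in IRF5-KO in edgeR. Scd2 rose in WT by 0.86 (SE 0.30, adjusted p = 0.0440) and Fads1 in IRF5-KO by 0.35 (SE 0.10, adjusted p = 0.0145) in edgeR, and Acly, which supplies cytosolic acetyl-CoA, had an estimate of -0.23 in IRF5-KO that did not pass. Of 9 genes of storage and efflux, 1 fell in each genotype and 0 rose, a share below the 13.2% and 17.2% of all tested genes called lower. That gene was Apoe, the apolipoprotein that macrophages secrete with cholesterol, with log2 fold changes of -0.54 (SE 0.14, adjusted p = 0.00938) and -0.60 (SE 0.14, adjusted p = 0.00345) in edgeR.

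Marker genes of other cells differed with duration too. The 8 fibroblast markers summed to 677 to 1652 CPM on ST-HFD and to 3150 to 9213 CPM after LT-HFD, without overlap. Of these markers 8 of 8 rose in WT and 7 of 8 in IRF5-KO, beside 12.1% and 15.6% of all tested genes called higher. No fibroblast marker was at 0 in all libraries of a group. The 5 proliferation markers summed to 286 to 646 CPM on ST-HFD and to 88.3 to 197 CPM after LT-HFD. Of these 5, Mki67 and Top2a fell in WT and Mki67 in IRF5-KO. Mki67 carried most of the lower sum, and in IRF5-KO 3 of the 5 had estimates above 0 (Ccnb1, Cdk1 and Birc5), with a list median of 0.15. Of the 8 macrophage markers, 2 fell in WT (Itgam and Csf1r) and 0 rose, while in IRF5-KO 3 fell (Itgam, Csf1r and Cd14) and 2 rose (Adgre1 and Fcgr1). Over all tested genes 13.2% were called lower and 12.1% higher in WT, and 17.2% lower and 15.6% higher in IRF5-KO. Markers of other cells were low. Adipocyte markers summed to 21.7 to 57.9 CPM, mesothelial to 3.45 to 23.8 CPM, endothelial to 12.8 to 82.6 CPM, B cell to 2.61 to 9.43 CPM, T cell to 0.562 to 7.72 CPM and neutrophil to 0 to 1.90 CPM, with Ly6g at 0 in all 4 groups, Muc16 at 0 in both IRF5-KO groups and Trac in WT LT-HFD. Of these lists, Wt1 and Tek rose in both genotypes and Cidec fell in IRF5-KO. The other tested mesothelial gene, Upk3b, had estimates of -0.33 and -0.10, and 2 of 5 endothelial genes had estimates above 0 in each genotype, with list medians of -0.14 and -0.18. None of the mesothelial genes passed the filter on low counts among ST-HFD libraries alone, so Wt1 was tested through its LT-HFD libraries. In bulk libraries a change in the share of cells of a type and a change in RNA per cell cannot be told apart, and the part of these cells in the sterol gene results was not tested.

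**Figure D4:**
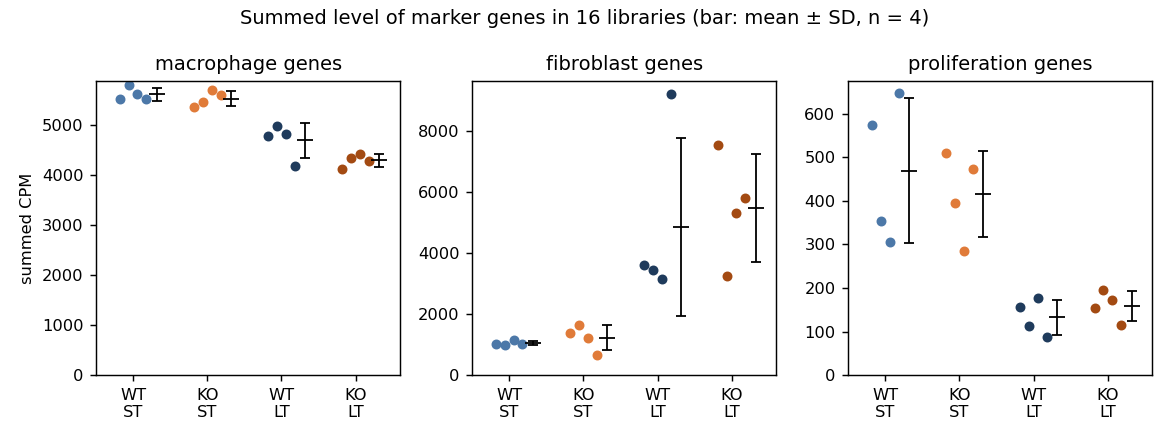
Summed level (CPM, axis from 0) of the macrophage, fibroblast and proliferation marker genes in the 16 libraries, with points for libraries and a bar for the mean ± SD of each group of 4. Fibroblast genes reach 9213 CPM on LT-HFD and stay at or below 1652 CPM on ST-HFD, and proliferation genes sum to at most 197 CPM in every LT-HFD library.

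Loss of Irf5, as labelled, was the question the study put to these cells, and none of the 7 genes passed between genotypes at either duration. On ST-HFD 0 of the 7 had an adjusted p under 0.05 by edgeR's quasi-likelihood test, 0 had an unadjusted p under 0.05, 0 had groups without overlap and 0 passed in DESeq2. Over all 10958 tested genes those shares were 0.00913%, 1.84% and 1.47% in edgeR. On LT-HFD the counts were again 0, 0, 0 and 0 of the 7, beside 0.0182%, 5.72% and 3.01% of 10987 tested genes. On ST-HFD the estimates were above 0 for 7 of 7, with a median log2 fold change of 0.12 beside 0.00 for all genes. With 1 library left out the median ran from 0.0669 to 0.218, the ends being reached by omitting replicate 2 or replicate 3 of WT. The highest was that of Sqle at 0.61 (95% interval -0.36 to 1.59, and from 0.34 to 0.88 with 1 library left out), followed by Idi1 at 0.33 (-0.47 to 1.13) and Fdps at 0.25 (-0.27 to 0.77). Srebf2 at 0.07 (-0.16 to 0.29) and Insig1 at 0.08 (-0.21 to 0.38) had the narrowest intervals, and Lss at 0.12 and Fdft1 at 0.05 were no larger than their standard errors of 0.26 and 0.25.

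On LT-HFD the estimates were positive for 5 of 7, with a median of 0.03 beside 0.00 for all genes. Idi1 was at 0.41 (95% interval -0.48 to 1.31), Fdps at 0.36 (-0.31 to 1.03) and Fdft1 at 0.33 (-0.19 to 0.85). Sqle at 0.03 (-0.84 to 0.90), Srebf2 at 0.01 (-0.32 to 0.34), Insig1 at -0.004 (-0.28 to 0.27) and Lss at -0.01 (-0.65 to 0.62) were near 0. The LT-HFD median depended on WT LT-HFD replicate 3, the highest of the 16 libraries for Sqle and Fdps, and was 0.45 without it. By edgeR 0 genes of the other pathway lists passed between genotypes, and an unadjusted p under 0.05 was found for 0 on ST-HFD and for 1 on LT-HFD, Lipa. On ST-HFD those with the smallest p were Nsdhl (log2 fold change 0.39), Scd1 (0.34) and Hsd17b7 (0.45) above 0, and Fads1 (-0.14), Npc2 (-0.12) and Nr1h3 (-0.37) below. On LT-HFD they were Lipa (0.48), Npc1 (0.33) and Soat1 (0.31) above 0, and Nr1h2 (-0.24), Cyp27a1 (-0.35) and Mvk (-0.35) below.

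The difference between the durations in the genotype effect was tested directly over the 16 libraries. By edgeR's quasi-likelihood test 0 of the 7 genes and 0% of 11560 tested genes had an adjusted p under 0.05, and 0 of the 7 had an unadjusted p under 0.05. Over all genes 454 had an unadjusted p under 0.05. DESeq2 called 0 of the 7 and 0 of all genes. The estimate farthest from 0 was that of Sqle, at -0.59 (95% interval -1.92 to 0.74). It was -0.053 without WT LT-HFD replicate 3 and ran from -0.857 to -0.053 with 1 library left out. The other 6 estimates ran from -0.13 for Lss to 0.28 for Fdft1. Calls made in one genotype and not in the other, as for Fdft1 and Insig1, were thus not shown to differ between genotypes. In the other lists the smallest p belonged to Fads1 (0.24), Nr1h3 (0.59) and Lipa (0.59) above 0 and to Nsdhl (-0.63), Cyp27a1 (-0.36) and Ch25h (-0.86) below, and none passed.

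Libraries that were high for one enzyme tended to be high for others. With each gene centred on the mean of its group, Pearson's r of log2 CPM was positive in 18 of 21 pairs, with a median of 0.39. Fdps correlated with Sqle (r = 0.75, permutation p = 0.00376, adjusted p = 0.0395 over 21 pairs, Spearman's rho = 0.64, p = 0.0217, adjusted p = 0.114) and with Fdft1 (r = 0.64, permutation p = 0.00313, adjusted p = 0.0395, rho = 0.59, p = 0.00945, adjusted p = 0.0661). These were the 2 pairs that passed by r, and 0 passed by rho. With 1 library left out, the adjusted p for r stayed under 0.05 in 3 of 16 fits for Fdps with Sqle and in 5 of 16 for Fdps with Fdft1, so that both calls were lost in most fits. Without the pair of libraries farthest from the median of Fdps, WT LT-HFD replicates 3 and 4, r was 0.59 and 0.71. The 3 negative pairs all held Insig1, of which the lowest was that with Fdft1 (r = -0.57, permutation p = 0.0730, adjusted p = 0.175, rho = -0.66, p = 0.0376, adjusted p = 0.158, n = 16). Values of one library share its depth and normalization, and counts of the enzymes were low.

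As a description across the 16 libraries, the genes outside the set whose log2 CPM lay closest to the mean of the 7 included Hdac2 (r = 0.90), Atp6ap2 (0.87) and S1pr2 (0.85), among 9759 genes averaging 20 counts or more, each centred within its group. Of the 7 themselves, Fdps (0.86), Sqle (0.84) and Srebf2 (0.80) lay closest to the mean, which contains them.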

How the data were processed

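F4/80+ ATMs of 16 libraries were analysed, 4 per genotype and diet duration. The authors deposited raw counts per gene, made from stranded total RNA libraries by fastp 0.19.11 and STAR 2.7.3a, as the submitters' processing notes list them, without normalization. Those notes name mm10 and mm9 as builds. The annotation release and strand setting are not given in the sources used here. Of 37310 identifiers, 32620 were matched to GENCODE M21 (GRCm38) for names, lengths and coordinates. Total counts of 3279332 to 4958131 limit precision for genes with few counts. No pair of libraries within a group agreed within sampling noise.

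Counts were analysed with edgeR 4.0.16 in R 4.3.3 (filterByExpr, TMM, quasi-likelihood test, Benjamini-Hochberg over all tested genes, calls at an adjusted p under 0.05). Genotypes were compared with each duration fitted alone. Durations and the interaction were fitted over 16 libraries. CPM used TMM factors over 16 libraries. Correlations used log2 CPM with a prior count of 2 and 100000 permutations of libraries within groups, two-sided, in Python 3.11.15. Alternatives were DESeq2 1.42.0 (Wald test and size factors), other scalings and filters, other sample sets, a replicate block and leaving out each library. On ST-HFD, deviations of same-numbered libraries of the 2 genotypes correlated at 0.37, 0.48, 0.18 and 0.30 over 9765 genes. Some unlike-numbered libraries correlated as highly. WT replicate 4 with IRF5-KO replicate 1 was at 0.47 and WT replicate 2 with IRF5-KO replicate 3 at 0.41, while others ran down to -0.51. The numbers were thus not shown to mark pairs, and the reported values are from the fit without the block. The members and gene lists were chosen with earlier results of these data known. Besides all members, genes named were those of the lists with an adjusted p under 0.05, up to 3 in each direction with the smallest p in each comparison, Irf5, Adgre1 and those of the 5 most alike. Some genes that this rule names are not reported here, nor drawn.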

Additional observations from a re-analysis of the deposited data

Results flagged for a closer look

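In 28 groups of 4 libraries (the 7 measured genes in 4 groups), the gap between an extreme library and its neighbour was compared with the range of the group. It exceeded Dixon's 95% critical value in 2 groups, and chance gives about 1 in 20. Insig1 in WT ST-HFD replicate 1 was at 52.9 CPM, above 3 libraries between 48.2 and 49.0 CPM, a gap of 0.840 of the range. Idi1 in WT ST-HFD replicate 4 was at 3.96 CPM, from 21 counts, above 3 libraries between 1.77 and 2.09 CPM, a gap of 0.854 of the range.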

How the results depend on the processing

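The direction of Insig1, Fdft1 and Srebf2 with duration held in every alternative run in both genotypes. The number of the 7 genes called with duration in WT was 1, and was 0 with library totals without TMM and 0 with no filter on low counts. Insig1 then had adjusted p of 0.0581 and 0.054 in edgeR. Leaving out 1 library at a time gave 0 to 2 genes. In IRF5-KO 2 were called, and 1 with library totals without TMM, without the 3 features with the most counts, with no filter, or with only the 8 libraries of the genotype, Srebf2 being lost each time (adjusted p 0.0504 to 0.0693 in edgeR). Leaving out 1 library gave 0 to 2. The genotype calls stayed at 0 of 7 throughout. The LT-HFD genotype median ran from -0.0147 to 0.45 when 1 library was left out.

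Some estimates that had not passed changed sign, still without reaching the threshold. On LT-HFD the genotype effect of Insig1 was 0.0406 with library totals without TMM, 0.0022 with no filter and 0.0008 over 16 libraries, and that of Lss was 0.0125 with library totals without TMM. With the replicate block Lss was at 0.0307 on LT-HFD. Leaving out 1 library moved the ST-HFD genotype effects of Srebf2 between -0.0057 and 0.119, Fdft1 between -0.0577 and 0.179 and Lss between -0.0342 and 0.285. On LT-HFD it moved Srebf2 between -0.0791 and 0.158, Insig1 between -0.0639 and 0.0745, Sqle between -0.23 and 0.58 and Lss between -0.20 and 0.21. It moved Fdps with duration in WT between -0.0136 and 0.49, and the interactions of Srebf2 between -0.15 and 0.0714, Idi1 between -0.28 and 0.34, Fdps between -0.0784 and 0.42 and Lss between -0.31 and 0.0769. The cause was not tested.

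With the replicate block 0 of the 7 genes were called between genotypes on ST-HFD, on LT-HFD or in the interaction, as without it. The block was not run for the duration comparisons, where the calls among the 7 were made. Over all genes the block gave 2 calls in place of 1 on ST-HFD and 0 in place of 2 on LT-HFD. Same-numbered libraries correlated at -0.07, -0.15, 0.06 and 0.23 on LT-HFD, where the numbers were not taken as pairs either. All-gene calls between genotypes were 2 on ST-HFD and 6 on LT-HFD with no filter or in DESeq2, 2 on ST-HFD over 16 libraries, and 1 on LT-HFD with library totals without TMM. Leaving out 1 library gave 0 to 2 on LT-HFD. Correlated pairs with an adjusted p under 0.05 were 5 with no centring, and 0 to 3 with 1 library left out. Counts of 7 to 59 per library limit what can be seen for the 5 enzymes.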
